A study of Mus musculus with 12 samples.

Results

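The 43 genes described here carry a cell through division: 4 that control entry into S phase, 11 of DNA replication and nucleotide supply, and 28 of mitosis. They were chosen by symbol, and each matched 1 of the 24962 entries of the deposited liver expression table. The RNA came from liver of wild-type C57BL/6 female mice, either with ovaries (intact) or ovariectomized, given PBS (vehicle) or 1 mg/kg of Dexamethasone, a synthetic glucocorticoid, and collected 6 h later. All 4 groups, intact vehicle, intact dexamethasone, ovariectomized vehicle and ovariectomized dexamethasone, held 3 RNA-seq libraries each. The labels name no genetic change in any group, do not give ages or the interval since surgery, and do not say that replicates came from separate animals, so p-values measure the spread between these libraries. The labelled tissue was checked against Alb, the albumin gene of hepatocytes, which stood between 21.59 and 22.03 on the deposited log2 scale in all 12 libraries.

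Cyclin D1 with its kinases releases E2F factors from the retinoblastoma family, and E2F then drives genes that license and copy DNA. Mitotic genes are switched on later, from promoters that often hold a CCAAT box and a cell cycle homology region (CHR) bound by MuvB complexes with B-Myb or FoxM1. In quiescent cells the DREAM complex holds both groups down. Most cells of the adult liver are quiescent hepatocytes, and division is also seen in its blood-derived and lining cells.

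RefSeq promoter windows (GRCm38.p6, 250 bases before to 50 after the start) were found for 36 of the 43 genes, as 39 windows. The CHR was searched as TTTGAA or TTTAAA on both strands and was present in 23 of 26 windows of mitotic genes (88.5%), in 3 of 11 windows of replication genes (27.3%) and in 27.6% of all 32851 windows. An E2F core, GCGCGAA or GCGGGAA, was present in 6 of 11 replication windows (54.5%), in 1 mitotic window (3.85%) and in 6.0% of all windows. The CCAAT box stood in 92.3% of mitotic, 90.9% of replication and 37.4% of all windows. The glucocorticoid receptor word AGAACA was in 15.4%, 9.09% and 19.0% of them. These letter matches describe the windows and are not measured binding. The 3 mitotic stretches below are of genes lower after ovariectomy, Mki67 and Cdc20 under dexamethasone and Top2a with vehicle. None of these genes passed in both ovariectomy comparisons. Each stretch is the 150 bases before the start, 5′ to 3′ along the gene, with CHR and CCAAT words in capitals. Mki67 lies on the minus strand at chr7:135716380-135716529, Cdc20 on the minus strand at chr4:118437344-118437493 and Top2a on the minus strand at chr11:99024190-99024339.
Mki67: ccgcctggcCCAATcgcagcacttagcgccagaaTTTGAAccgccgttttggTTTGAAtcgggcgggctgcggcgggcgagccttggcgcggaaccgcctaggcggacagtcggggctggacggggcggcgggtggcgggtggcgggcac
Cdc20: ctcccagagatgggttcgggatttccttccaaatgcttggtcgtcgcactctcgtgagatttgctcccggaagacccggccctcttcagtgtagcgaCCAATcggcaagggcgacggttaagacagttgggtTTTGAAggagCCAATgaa
Top2a: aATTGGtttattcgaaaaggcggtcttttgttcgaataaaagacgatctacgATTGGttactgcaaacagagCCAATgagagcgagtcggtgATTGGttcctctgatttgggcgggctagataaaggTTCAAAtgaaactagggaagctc

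The replication stretches show a gene that fell in all 4 group comparisons (Mcm6), and both subunits of ribonucleotide reductase, of which Rrm2 rose with dexamethasone and Rrm1 did not pass the test. Capitals mark CCAAT and E2F words. Mcm6 lies on the minus strand at chr1:128359706-128359855, Rrm1 on the plus strand at chr7:102441545-102441694 and Rrm2 on the plus strand at chr12:24708104-24708253. The E2F words started at -106 and -43 in Mcm6 and at -67 in Rrm1, counted from the start. The Rrm2 stretch held 1 CCAAT word, at -50, and none of the E2F words.
Mcm6: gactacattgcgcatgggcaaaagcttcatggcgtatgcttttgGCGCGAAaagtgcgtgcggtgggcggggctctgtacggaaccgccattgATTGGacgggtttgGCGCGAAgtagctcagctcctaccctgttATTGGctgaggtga
Rrm1: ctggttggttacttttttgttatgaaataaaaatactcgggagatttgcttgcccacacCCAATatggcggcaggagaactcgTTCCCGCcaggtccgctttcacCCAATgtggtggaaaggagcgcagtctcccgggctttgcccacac
Rrm2: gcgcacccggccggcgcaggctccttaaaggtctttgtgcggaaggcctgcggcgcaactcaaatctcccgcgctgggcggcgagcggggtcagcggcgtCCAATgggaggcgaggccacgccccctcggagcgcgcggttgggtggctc

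Mitotic genes varied strongly among intact libraries of the same label. Their mean log2 level was 6.37, 5.72 and 6.4 in intact vehicle, 6.29, 5.91 and 7.14 in intact dexamethasone, 5.78, 5.57 and 5.74 in ovariectomized vehicle, and 5.6, 5.42 and 5.55 in ovariectomized dexamethasone (replicates 1, 2 and 3 in each). Intact dexamethasone replicate 3 was the highest of 12 libraries for all 28 mitotic genes, by a median of 1.05 over the other 2 of its group. Intact vehicle replicate 2 was the lowest of its group for all 28, by a median of 0.69 below the other 2 (-0.69 on the log2 scale). The median SD of a mitotic gene was 0.41 and 0.66 in intact vehicle and intact dexamethasone, against 0.14 and 0.12 in the ovariectomized groups; over all genes tested it was 0.08 to 0.1. Replication genes stood apart in the same libraries by less: all 11 lay above the mean of the other 2 in intact dexamethasone replicate 3 (median difference 0.41) and all 11 below it in intact vehicle replicate 2 (-0.15). Over all 12 libraries, 8 of the 11 were highest in intact vehicle replicate 3. Results that move without these libraries are also given without them. Leaving both out was chosen after seeing the data and on the mitotic levels themselves. The direction in which it moves mitotic genes is therefore partly fixed by that choice. The same holds for the replication genes, which stood apart in the same directions in both libraries.

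**Figure D1:**
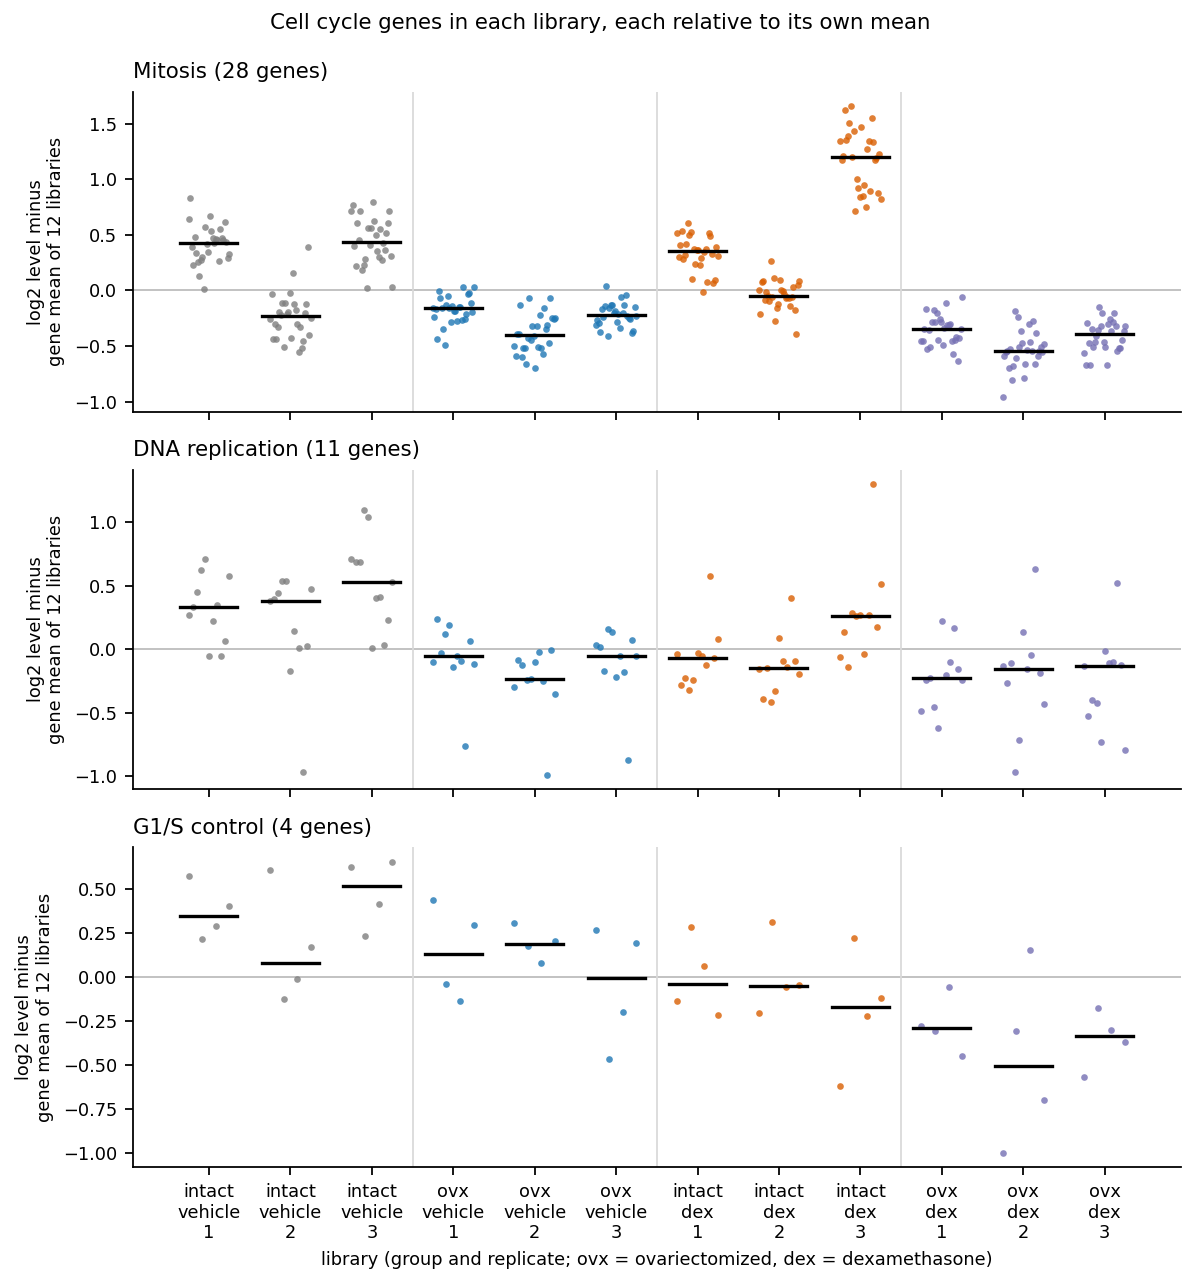
Level of the 43 genes in each of the 12 libraries (horizontal axis), as the log2 level minus that gene's mean over all libraries (vertical axis), in 1 panel per role; each point is a gene and each black bar the median of the panel's genes in that library. The mitotic points are highest in intact dexamethasone replicate 3 and lie low in the ovariectomized libraries.

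Of the genes of S-phase entry, Ccnd1 and E2f1 fell with dexamethasone in both hormonal states. Ccnd1 encodes cyclin D1, the partner of CDK4 and CDK6. Its log2 level was 11.84, 11.87 and 11.89 in intact vehicle and 11.13, 11.06 and 10.65 in intact dexamethasone, and 11.7, 11.57 and 11.53 in ovariectomized vehicle against 10.99, 10.27 and 10.7 in ovariectomized dexamethasone. All treated libraries lay below all vehicle libraries in each state, with a log2 fold change of -0.92 ± 0.16 (SE, n = 3 per group; limma adjusted p = 0.000607) in intact and -0.94 ± 0.16 (adjusted p = 0.00077) in ovariectomized mice. E2f1, the activating E2F, stood at 6.65, 6.42 and 6.9 in intact vehicle, 6.03, 6.2 and 6.13 in intact dexamethasone, 6.54, 6.45 and 6.44 in ovariectomized vehicle, and 5.8, 5.55 and 5.88 in ovariectomized dexamethasone. It too separated completely by treatment, by -0.54 ± 0.12 (adjusted p = 0.00353) and -0.73 ± 0.12 (adjusted p = 0.000725). In these bulk samples fewer cells of a type and less RNA per cell cannot be told apart. Ccne1, a cyclin E gene, had log2 fold changes of 0.17 and -0.15 with dexamethasone in the intact and ovariectomized states and passed neither test. In dexamethasone-treated mice it was lower after ovariectomy by -0.54 ± 0.15 (adjusted p = 0.0381), from 6.11, 6.14 and 6.05 to 5.52, 5.52 and 5.65. Ccne2, the other cyclin E gene, passed no test; its largest difference was -0.32 ± 0.15 between ovariectomized and intact vehicle (adjusted p = 0.118).

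The replicative helicase genes fell with dexamethasone in intact mice, and so did the sliding clamp. Of the 6 Mcm genes, whose products form the helicase ring, 5 fell, and Pcna, the clamp that holds polymerase on DNA, fell as well. Mcm6 stood at 8.59, 8.42 and 8.92 in intact vehicle and at 7.64, 7.55 and 8.14 in intact dexamethasone. Those groups did not overlap, and the log2 fold change was -0.87 ± 0.17 (adjusted p = 0.00126). Mcm4 stood at 7.37, 7.36 and 7.61 against 6.69, 6.77 and 6.78, a fall of -0.7 ± 0.095 (adjusted p = 0.000143). The other log2 fold changes were -0.9 ± 0.21 for Mcm5 (adjusted p = 0.00463), -0.65 ± 0.15 for Mcm3 (0.00355), -0.54 ± 0.13 for Mcm2 (0.00537) and -0.31 ± 0.069 for Pcna (0.00294). Mcm7 was the exception among the helicase genes, at 0.18 ± 0.087 (adjusted p = 0.107). Over all 43 genes, 8 were lower and 2 higher in intact mice given dexamethasone; by role, 6 of 11 replication genes were lower and 1 higher, 2 of 4 S-phase entry genes were lower, and 1 of 28 mitotic genes was higher. Across all genes tested 25.9% were lower and 22.8% higher, so the total for the 43 is below that background in both directions. The share of the 11 replication genes that fell is above it. These 11 were chosen with earlier results of the data known, and of 24 tested replication genes outside them 5 were lower. The higher share is therefore a description of the 11 and not of replication genes at large. All treated libraries lay below all vehicle libraries for 8 of the 43 genes and above them for 2, beside 28.6% and 26.9% of all genes tested. The median log2 fold change was -0.39 for replication genes, 0.31 for mitotic genes and 0 for all genes tested.

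In ovariectomized mice 3 of 11 replication genes were lower with dexamethasone and 2 higher. Mcm6 fell from 8.07, 7.65 and 8.02 to 7.26, 7.17 and 7.15, without overlap, by -0.72 ± 0.17 (adjusted p = 0.00499). Mcm5 fell by -0.62 ± 0.21 (adjusted p = 0.0361) and Mcm3 by -0.4 ± 0.15 (adjusted p = 0.0457). Mcm7 was higher by 0.27 ± 0.087 (adjusted p = 0.0288). Pcna stood at 8.18, 8.21 and 8.18 in ovariectomized vehicle and 8.03, 8.07 and 8.12 in ovariectomized dexamethasone and did not pass the test, though its libraries did not overlap. In all, 5 of the 43 were lower and 2 higher, against 19.4% and 21.3% of all genes tested. The 5 genes lower in ovariectomized mice (Ccnd1, E2f1, Mcm3, Mcm5 and Mcm6) were all among the 8 lower in intact mice. They are 62.5% of that list and 100% of their own. The pair of comparisons shares no libraries, but both use the same estimate of each gene's spread from all 12 libraries. The overlap was not counted over all genes tested, so it says nothing particular about these genes. The median was -0.14 for replication genes and -0.19 for mitotic genes. Of the 28 mitotic genes 25 had negative values, none passed (limma; 0 of 28 had an unadjusted p under 0.05), and 9 had all treated libraries below all vehicle libraries. Over all 43 genes 16 did, and 2 had all treated libraries above, beside 26.5% and 28.1% of all genes tested.

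Rrm2 went the other way. It encodes the small, cell-cycle-controlled subunit of ribonucleotide reductase, the enzyme that makes deoxyribonucleotides. Its log2 level was 7.95, 7.03 and 8.03 in intact vehicle, 8.58, 8.4 and 9.3 in intact dexamethasone, 7.24, 7.01 and 7.13 in ovariectomized vehicle, and 8.17, 8.63 and 8.52 in ovariectomized dexamethasone. Every treated library was above every vehicle library of its state. The rise was 1.09 ± 0.27 (2.12-fold; adjusted p = 0.0055) in intact and 1.31 ± 0.27 (2.48-fold; adjusted p = 0.00243) in ovariectomized mice, and the difference between those responses was 0.23 ± 0.38 (adjusted p = 0.688). Without intact vehicle replicate 2 and intact dexamethasone replicate 3 the intact rise was 0.5, the lowest of the 22 alternative settings. The ovariectomized rise lay between 1.22 and 1.45 in those settings, so the similar size of the rises rested on these intact libraries. Rrm1, the large subunit, did not pass in either state (-0.26 ± 0.12, adjusted p = 0.0984, and 0.09 ± 0.12, adjusted p = 0.562). Tyms, thymidylate synthase, did not pass either, at -0.1 and -0.2.

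Ovariectomy went with lower levels of most of the 11 listed replication genes in vehicle-treated mice. All 43 genes had negative log2 fold changes in ovariectomized against intact vehicle; 11 passed, all lower, beside 15.5% of all genes tested that were lower and 12.4% higher. Every ovariectomized library lay below every intact library for 17 of them and above for 0, beside 24.4% and 20.7% of all genes tested. Of the 11 replication genes 7 were lower: Mcm2, Mcm4, Mcm5, Mcm6, Pcna, Rrm1 and Brca1. Mcm4 stood at 7.37, 7.36 and 7.61 in intact and 6.89, 6.8 and 6.75 in ovariectomized vehicle, without overlap (-0.63 ± 0.095, adjusted p = 0.00112). Brca1, which acts in homologous recombination during S phase, stood at 6.89, 6.79 and 6.84 against 6.2, 5.96 and 6.26 (-0.7 ± 0.17, adjusted p = 0.0124). Mcm6 was lower by -0.73 ± 0.17 (adjusted p = 0.00836), Mcm2 by -0.58 (0.00826), Mcm5 by -0.74 (0.0238), Pcna by -0.29 (0.00971) and Rrm1 by -0.43 (0.0203). The median was -0.55 for replication genes, -0.47 for mitotic genes and -0.01 for all genes.

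**Figure D2:**
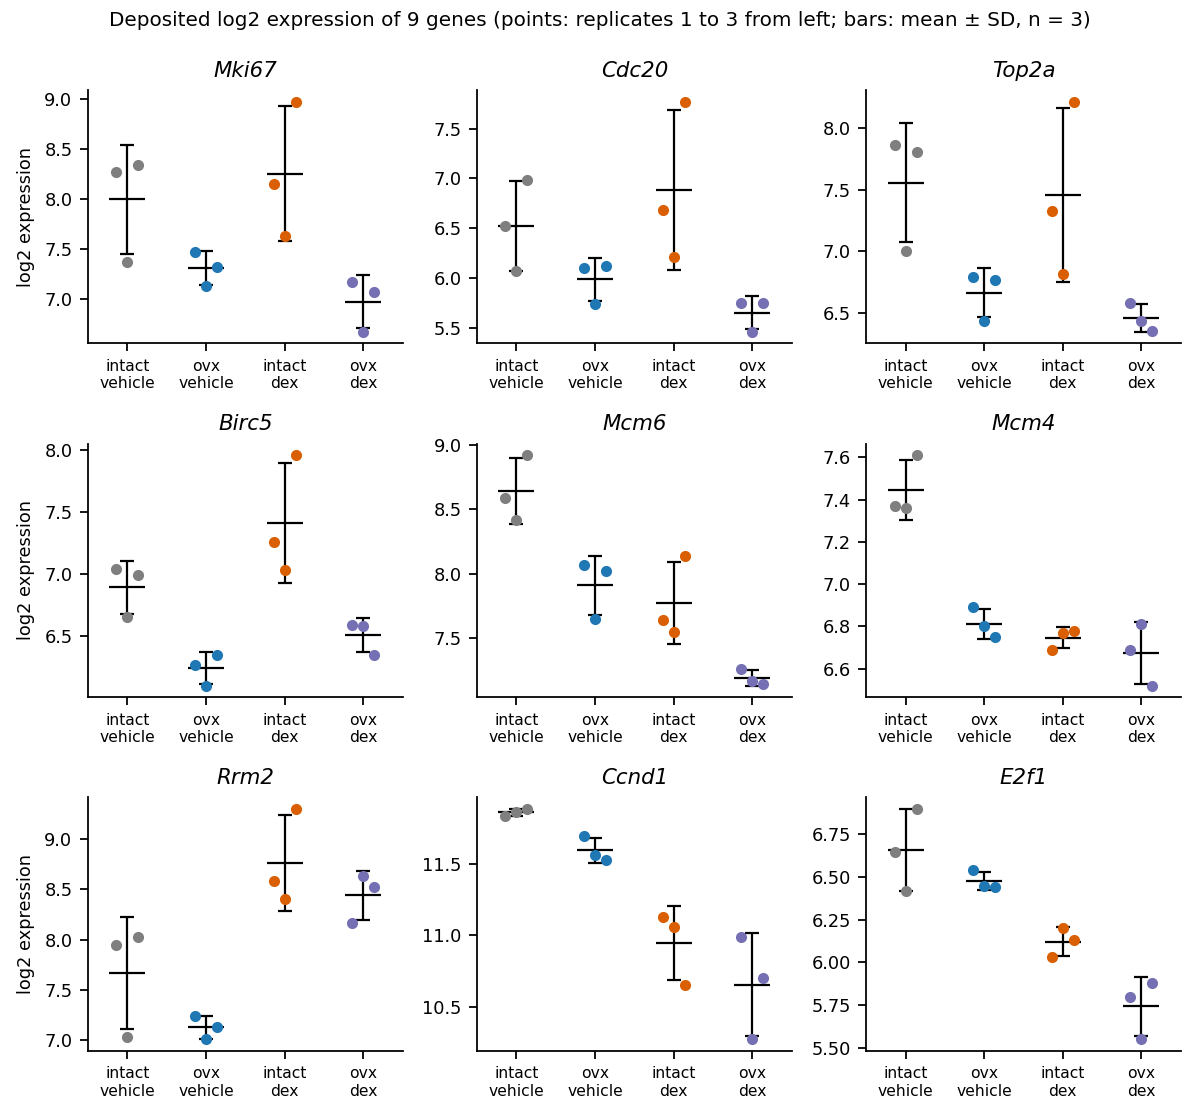
Deposited log2 levels (vertical axes) of 9 genes in the 4 groups; each point is a library and the black bars give mean ± SD (n = 3). Ccnd1 and E2f1 are lower and Rrm2 is higher in each dexamethasone group than in its vehicle group, Mcm6 and Mcm4 are highest in intact vehicle, and Mki67, Cdc20 and Top2a spread widely in the intact groups.

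Among mitotic genes, 4 of 28 were lower in ovariectomized than in intact vehicle mice: Top2a, Birc5, Arhgap11a and Ect2. That share is near the 15.5% of all genes tested that were lower, so the count says nothing particular about mitotic genes. Top2a, the topoisomerase that untangles sister chromosomes, stood at 7.86, 7 and 7.8 in intact vehicle and 6.79, 6.44 and 6.77 in ovariectomized vehicle (-0.89 ± 0.3, adjusted p = 0.0473). Birc5, survivin of the chromosomal passenger complex, stood at 7.04, 6.65 and 6.99 against 6.27, 6.1 and 6.35 (-0.65 ± 0.2, adjusted p = 0.0294). The groups did not overlap for either gene. Ect2, which acts in cytokinesis, was lower by -0.76 ± 0.24 (adjusted p = 0.033), and Arhgap11a by -0.68 ± 0.19 (adjusted p = 0.0229). The other 24 mitotic genes did not pass: Mki67, for example, stood at 8.27, 7.37 and 8.34 against 7.47, 7.13 and 7.32 and overlapped (-0.69 ± 0.31, adjusted p = 0.123). Without intact vehicle replicate 2 the count was 9 and the median -0.7, and without that library and intact dexamethasone replicate 3 it was 25. Leaving out intact vehicle replicate 1 or 3, or any 1 ovariectomized vehicle library, left 0. Among all genes tested, the share called in either direction was 27.9% in the main fit. It was 17.1% and 19.1% without intact vehicle replicates 1 and 3, and 19.7%, 21.1% and 20.5% without ovariectomized vehicle replicates 1, 2 and 3. Without intact vehicle replicate 2 it was 29%, and without that library and intact dexamethasone replicate 3 it was 33.3%.

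Under dexamethasone mitotic genes were lower in ovariectomized than in intact mice. All 28 had every ovariectomized library below every intact library, beside 14.6% of all genes tested; 5 of 11 replication genes and 2 of 4 S-phase entry genes did so too. None of the 43 had every ovariectomized library above, beside 19.5% of all genes tested. Mki67, the proliferation antigen Ki-67 that coats mitotic chromosomes, stood at 8.15, 7.63 and 8.97 in intact and 7.17, 6.67 and 7.07 in ovariectomized dexamethasone (-1.28 ± 0.31, 2.43-fold, adjusted p = 0.0278). Cdc20, the activator of the anaphase-promoting complex, stood at 6.68, 6.21 and 7.77 against 5.75, 5.46 and 5.75 (-1.23 ± 0.33, adjusted p = 0.0352). Birc5 stood at 7.26, 7.03 and 7.96 against 6.59, 6.58 and 6.35 (-0.91 ± 0.2, adjusted p = 0.0185). In each case the intact library set farthest apart was replicate 3, and the lowest intact library still lay above the highest ovariectomized one.

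By the test, 16 of 28 mitotic genes were lower under dexamethasone, and over all 43 genes 19 were lower and none higher, beside 5.08% lower and 7.74% higher among all genes tested. The median mitotic log2 fold change was -0.95 (range -1.28 to -0.5), that of replication genes -0.16 and that of all genes 0.02. Cyclins and their regulators among the 16 were Ccna2 (-0.96, adjusted p = 0.0393), Ccnb1 (-1.14, 0.0331) and Ccnb2 (-1.15, 0.0412), with Ube2c, the conjugating enzyme of the anaphase-promoting complex (-1.2, 0.0389). Kinases and checkpoint genes were Plk1 (-1.05, 0.0494), Aurka (-0.5, 0.0367), Bub1b (-0.77, 0.0373) and Ttk, the Mps1 checkpoint kinase (-1.02, 0.0325). Spindle and cytokinesis genes were Ckap2l (-1.24, 0.0434), Prc1, the microtubule bundler of the central spindle (-1.04, 0.0433), Arhgap11a (-0.92, 0.017), Cdca3 (-0.98, 0.0327) and Cdca8, borealin of the passenger complex (-0.7, 0.0384). The 12 that did not pass, which include Cdk1, the mitotic kinase (-0.98, 0.0553), Top2a (-1, 0.0509), Kif11, the spindle motor Eg5 (-0.73, 0.0553), and Nek2 (-0.93, 0.0618), had adjusted p-values from 0.0509 to 0.105. Outside mitosis Mcm6 (-0.58, 0.0416), Brca1 (-0.63, 0.0391) and Ccne1 passed.

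This count rested on small margins. It was 4 of 28 without intact dexamethasone replicate 3, 26 without replicate 2 and 2 without replicate 1 of that group. It was 4, 2 and 0 without ovariectomized dexamethasone replicates 1, 2 and 3, and 8 without ovariectomized vehicle replicate 1. With only the 6 libraries compared it was 0. Calls among all genes tested, in either direction, also fell from 12.8%. They were 9.81%, 9.9% and 2.41% without intact dexamethasone replicates 3, 2 and 1. Without ovariectomized dexamethasone replicates 1, 2 and 3 they were 7.16%, 7.71% and 1.61%. They were 9.27% without ovariectomized vehicle replicate 1 and 4.64% with only the libraries compared. The mitotic median stayed between -1.22 and -0.63 when any 1 library was left out. Without both intact dexamethasone replicate 3 and intact vehicle replicate 2 it was -0.63 with 19 genes passing, beside 12.9% of all genes tested. Arhgap11a, Birc5, Brca1 and Mcm6 were lower after ovariectomy under both treatments. They are 36.4% of the 11 called in vehicle mice and 21.1% of the 19 called in treated mice. The comparisons share no libraries but use the same estimate of each gene's spread, so their calls are not independent. This overlap was not counted over all genes tested either. Recentring the libraries changed the all-gene split under dexamethasone from 1004 higher and 658 lower to 728 and 782, and quantile normalization to 400 and 368. Under dexamethasone in ovariectomized mice, recentring changed it from 2765 and 2518 to 2479 and 2808.

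In intact mice dexamethasone left mitotic genes without a common change. 24 of 28 had positive and 4 negative log2 fold changes, and 1 passed: Birc5, at 0.53 ± 0.2 (adjusted p = 0.0449), whose libraries overlapped and whose call was lost in 14 of 22 alternative settings. Mki67 changed by 0.25 ± 0.31 (adjusted p = 0.528) and Top2a by -0.1 ± 0.3 (adjusted p = 0.807). The median of 0.31 became -0.07 without intact dexamethasone replicate 3, 0.04 without intact vehicle replicate 2 and -0.31 without both, with 7 mitotic genes lower in that last setting. In that setting 9 replication genes were lower, 1 higher, and the median was -0.59. All 11 replication genes and all 28 mitotic genes were low in the vehicle library left out and high in the treated one. The downward moves were therefore fixed in direction by the choice of libraries and are no check of the result.

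**Figure D3:**
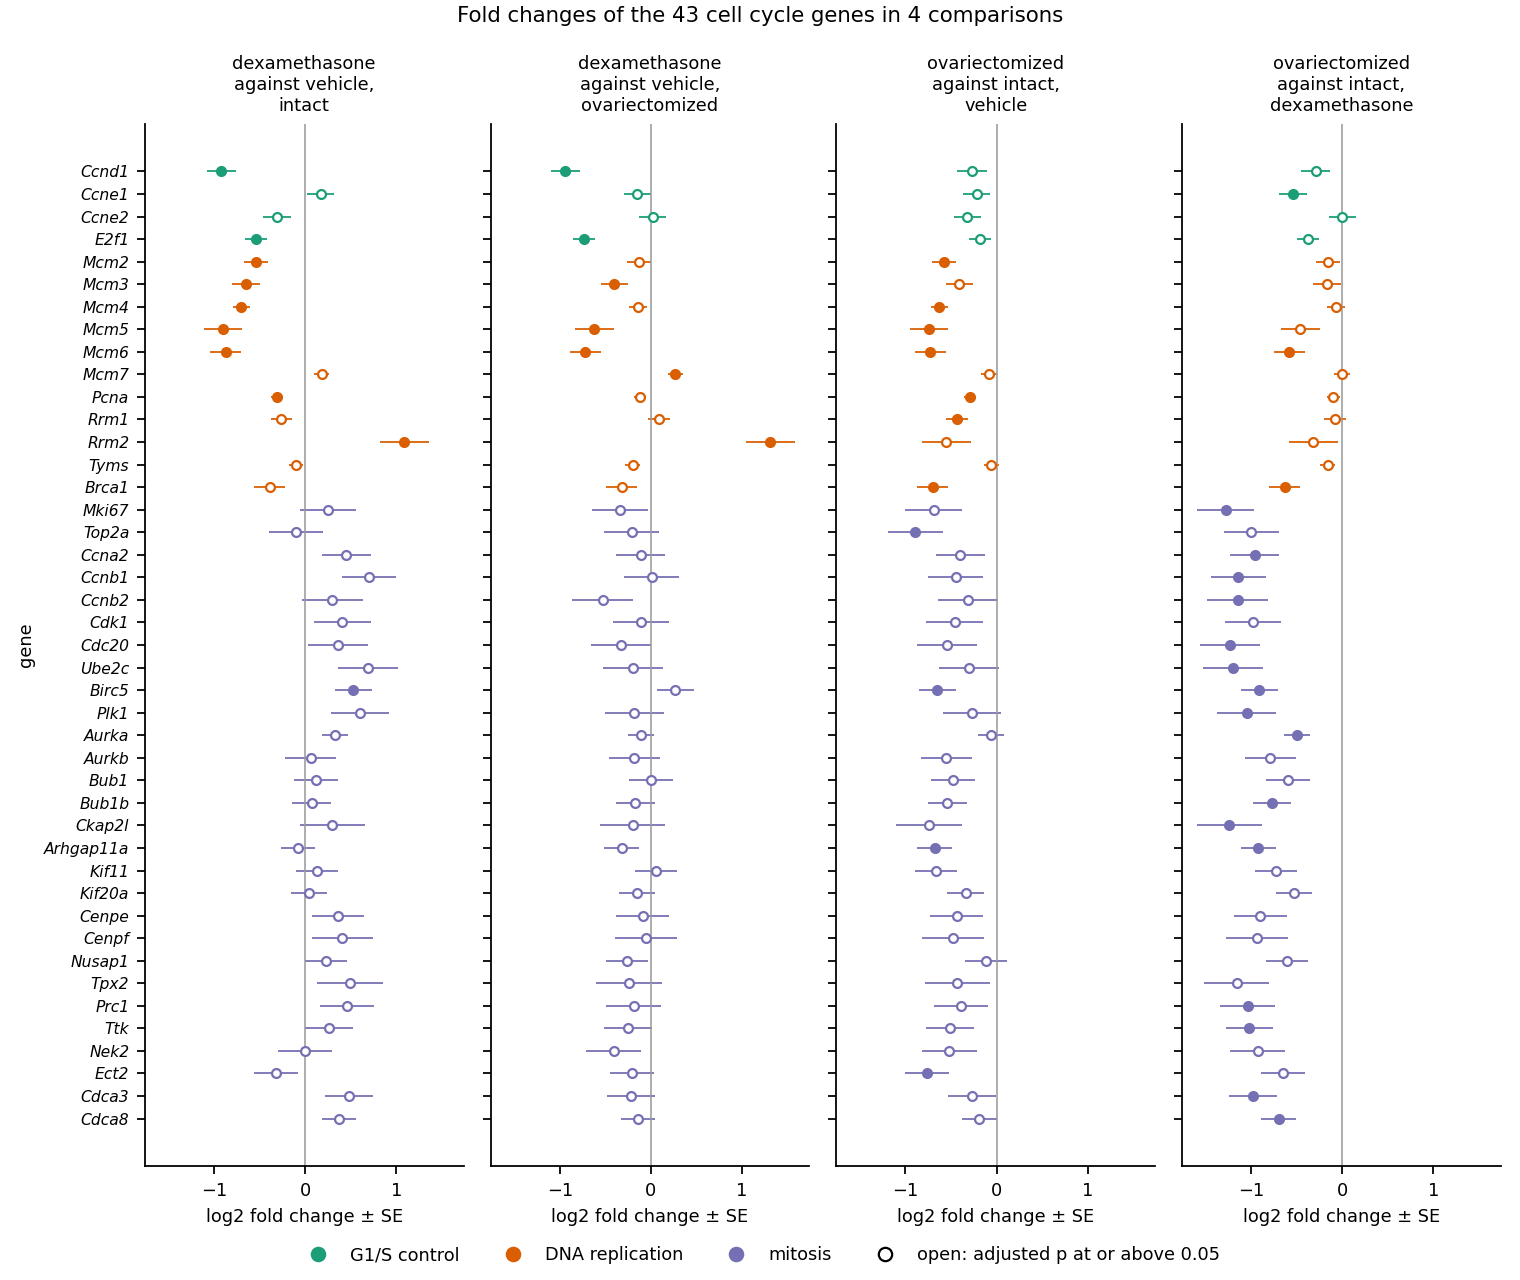
Log2 fold change ± SE (horizontal axes) of each of the 43 genes (rows, coloured by role) in the 4 group comparisons; filled points have a limma adjusted p under 0.05. Of the replication genes 6 are filled below 0 for dexamethasone in intact mice, and the mitotic points lie between -1.28 and -0.5 for ovariectomized against intact mice under dexamethasone.

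The dexamethasone response itself was compared between ovariectomized and intact mice by an interaction term. Mcm4 was the gene of the 43 that passed: beside its fall of -0.7 in intact mice, ovariectomized mice stood at 6.89, 6.8 and 6.75 with vehicle and 6.69, 6.81 and 6.52 with dexamethasone, overlapping (-0.14 ± 0.095, adjusted p = 0.264). The difference was 0.56 ± 0.14 (adjusted p = 0.0121; 1 of 43 higher and 0 lower, beside 15.3% and 9.65% of all genes tested). For mitotic genes the median difference was -0.49, with 27 of 28 negative, 0 passing by limma and 1 of 28 at an unadjusted p under 0.05; without both libraries that stood apart it was 0.11. For replication genes the median was 0.23. The mitotic median turned sign when those 2 libraries were left out, but choosing them on the mitotic levels fixed the direction of that move. In the fit of all 12 libraries no difference in response was shown for any of the 28 mitotic genes.

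Other genes of the pathway were read from lists by role. Cdkn1a, the p21 inhibitor of cyclin-dependent kinases and a known glucocorticoid target, stood at 7.73, 7.54 and 8.04 in intact vehicle, 10.15, 9.21 and 11.17 in intact dexamethasone, 7.68, 7.46 and 7.76 in ovariectomized vehicle, and 11.73, 11.11 and 11.51 in ovariectomized dexamethasone. It rose by 2.4 ± 0.36 (adjusted p = 0.000275) and 3.81 ± 0.36 (adjusted p = 2.2e-05). Of 21 tested inhibitor and pocket protein genes, 4 were higher and 6 lower with dexamethasone in intact mice and 4 and 3 in ovariectomized mice. These shares lie near those of all genes tested (22.8% higher and 25.9% lower, and 21.3% and 19.4%). Wee1, the kinase that restrains CDK1, fell by -1.21 and -0.74. Rbl2, the p130 pocket protein of the DREAM complex, fell by -0.45 in intact mice (adjusted p = 0.000166) and Ccng2 rose by 0.79 in ovariectomized mice (adjusted p = 0.000618). After ovariectomy 3 were higher and 7 lower with vehicle and 2 and 2 with dexamethasone, beside 12.4% and 15.5%, and 7.74% and 5.08%, of all genes tested.

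Of 24 tested replication genes outside the 43, 5 were lower and 1 higher with dexamethasone in intact mice, no more often lower than all genes tested (25.9% lower, 22.8% higher). In ovariectomized mice 9 were lower and 1 higher, beside 19.4% and 21.3%. Pola1, the catalytic subunit of DNA polymerase alpha, fell by -1 and -0.69, Rfc3 of the clamp loader by -0.83 and -1.01, and Lig1, the ligase that joins Okazaki fragments, by -0.8 and -1.01. Tk1, thymidine kinase, fell by -0.71 and -0.67 and was also lower after ovariectomy with vehicle (-0.47, adjusted p = 0.0163). With vehicle and with dexamethasone alike, 1 of the 24 was higher and 1 lower after ovariectomy, below the shares of all genes tested. Of 12 other G1 cyclins, kinases and E2Fs, 2 were lower with dexamethasone in intact mice and 3 lower and 1 higher in ovariectomized mice; Ccnd2, cyclin D2, fell in both (-0.46 and -0.39). After ovariectomy 1 of those 12 was lower with each treatment. Beside these counts, 25.9% and 19.4% of all genes tested were lower with dexamethasone in intact and ovariectomized mice.

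Of 28 other mitotic genes tested, 12 were lower in ovariectomized than in intact mice under dexamethasone and 0 higher, beside 5.08% and 7.74% of all genes tested. Kif2c, a microtubule-depolymerizing kinesin, had the largest change among those that passed (-1.11, adjusted p = 0.0253), from 5.38, 5.14 and 6.2 to 4.64, 4.27 and 4.47, followed by Cdca2 (-0.98), Stmn1 (-0.97) and Kif4 (-0.88). Hmmr (-1.23, adjusted p = 0.0546), Pbk (-0.94, 0.0938) and Nuf2 (-0.9, 0.068) had values of that size and did not pass. For Kif2c intact replicate 3 was again the highest, and the groups did not overlap. In the other comparisons the shares were below those of all genes tested: with vehicle 1 was higher and 0 lower after ovariectomy (12.4% and 15.5% of all genes), and with dexamethasone 5 were higher and 1 lower in intact mice (22.8% and 25.9%) and 2 and 2 in ovariectomized mice (21.3% and 19.4%). The regulators Foxm1, Mybl2 (B-Myb) and E2f8 passed in none of the 5 comparisons; Foxm1 came to -0.75 ± 0.25 (adjusted p = 0.0676) after ovariectomy under dexamethasone.

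Markers of some other cell types differed between these groups. Beside the counts below, 22.8% of all genes tested were higher and 25.9% lower with dexamethasone in intact mice, and 21.3% and 19.4% in ovariectomized mice. After ovariectomy the shares were 12.4% and 15.5% with vehicle and 7.74% and 5.08% with dexamethasone. The endothelial counts in ovariectomized mice given dexamethasone lie near these shares. The mean log2 level of 7 B cell genes was 5.29 to 5.78 in intact vehicle and 4.89 to 4.95 in intact dexamethasone, 5.32 to 5.56 in ovariectomized vehicle and 4.71 to 4.74 in ovariectomized dexamethasone; 6 of 6 tested were lower with dexamethasone in both states. For 4 pan-leukocyte genes the ranges in the same order were 9.18 to 9.4, 8.96 to 9.12, 9.08 to 9.21 and 8.74 to 8.92, with 2 and 3 of 4 lower with dexamethasone. For Kupffer cell and macrophage genes they were 9.91 to 9.98, 9.5 to 9.67, 9.34 to 9.66 and 9.02 to 9.4, and 6 of 8 were lower after ovariectomy with vehicle and 5 of 8 with dexamethasone. The 7 sinusoidal endothelial genes had a mean of 9.9, 9.68 and 9.85 in intact vehicle, 10.13, 10.02 and 10.45 in intact dexamethasone, 9.91, 9.6 and 9.81 in ovariectomized vehicle, and 10.14, 10.05 and 9.88 in ovariectomized dexamethasone. Their highest library was intact dexamethasone replicate 3, as for the mitotic genes. This was not particular to them: that library was also highest for the inhibitor and pocket protein list (8.05) and the other G1 list (7.34). Of the endothelial genes 3 were higher and 1 lower with dexamethasone in intact mice and 2 and 2 in ovariectomized mice. Stab2 was the 1 of 7 lower after ovariectomy under dexamethasone (-0.35, adjusted p = 0.0214). The 7 stellate cell genes ranged in group order from 8.71 to 9.07, 9.14 to 9.36, 8.66 to 9.01 and 8.77 to 8.97; 4 were higher with dexamethasone in intact mice and 0 in ovariectomized mice, and Col1a1 (-1.2, adjusted p = 0.0166) and Pdgfrb (-0.54, 0.0128) were lower after ovariectomy under dexamethasone. The part of these cells in the fall of Ccnd1, E2f1 and the replication genes with dexamethasone, and in the lower mitotic and replication genes after ovariectomy, was not tested. The 8 measured genes of neutrophils and myeloid precursors had means of 2.9 to 3.29, 2.87 to 2.98, 3.06 to 3.33 and 2.76 to 2.92, with the precursor genes Mpo and Elane at 1.03 and 0.59. The 3 tested, S100a8 (-0.85), S100a9 (-1.17) and Csf3r (-0.66), were lower with dexamethasone in ovariectomized mice and none in intact mice; S100a9 was higher after ovariectomy with vehicle (0.65, adjusted p = 0.0485) and Csf3r lower under dexamethasone (-0.47, 0.0119). The part of these cells was not tested either. Of the erythroid genes Hbb-b1 and Hba-a1 were listed at 0 in all libraries, and 0 of 4 tested erythroid genes passed by limma in any comparison. T and NK cell genes gave 0 of 6 in each comparison, with group ranges between 3.97 and 4.12. Of 7 hepatocyte genes 4 were higher with dexamethasone in intact mice and 5 in ovariectomized mice, and 0 lower in either. After ovariectomy 2 were higher and 1 lower with vehicle. Under dexamethasone 2 were higher, Hnf4a (0.59) and Cps1 (0.42), and 0 lower. The part of hepatocytes was not tested.

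**Figure D4:**
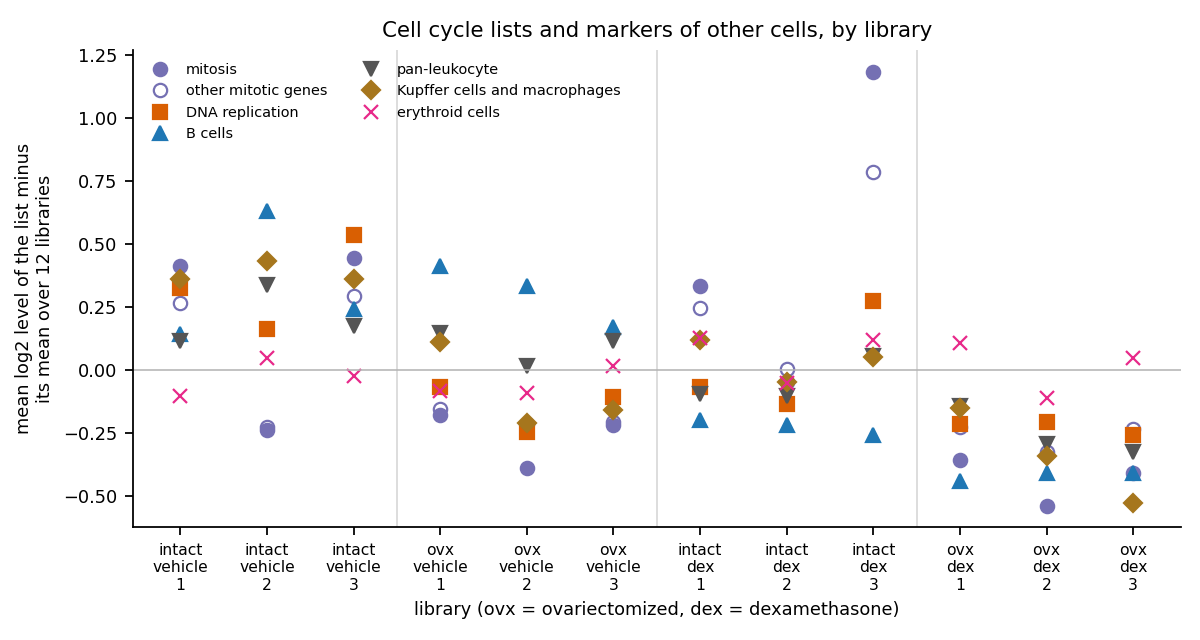
Mean log2 level of each gene list minus that list's mean over the 12 libraries (vertical axis), by library (horizontal axis), for mitotic, replication and marker lists; each point is 1 list in 1 library. The mitotic point of intact dexamethasone replicate 3 is the highest in the plot, and the B cell points lie below 0 in all 6 dexamethasone libraries and above 0 in all 6 vehicle libraries.

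Some values rest on reads that other genes could share. Of the 50-base words in its GENCODE transcripts, Ccnb1 shared 23.4% with another gene, Pcna 19.1% and Mcm7 18.1%, and their levels are uncertain to that extent. Exons overlapped those of other genes over 31.8% of Kif20a, 22.8% of Ube2c, 21.9% of Ccnd1 and 21.8% of Prc1, and no source used here says that counting used strand.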

How the data were processed

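RNA-seq of liver from 12 libraries was compared. Per the submitters' processing notes, the tools were DESeq, DESeq2, HTSeq, TopHat2 and Trim Galore and the build mm9, without versions or order. The values were deposited by the authors as log2 expression per gene, between -2.22 and 22.03. The exact transformation and read depth are unknown, so no counting interval is given, and levels are not compared between genes. Of 24962 entries 6294 were at 0 in every library; for 392 symbols with several entries the highest mean was kept, leaving 24033. Genes with a mean log2 of at least 4 (12965, all 43 members) were fitted with limma 3.58.1 (R 4.3.3; group means, empirical Bayes with trend, 8 residual degrees of freedom), and p-values were adjusted by Benjamini-Hochberg over all of them; passing means an adjusted p under 0.05. Values just inside the filter were Bub1 (mean 4.22), Ttk (4.26) and Ccnb1 (4.59). The fit was tested on simulated data. Library medians lay between 8.82 and 8.86, and the root mean square difference between replicates was 0.172 to 0.32.

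Members and lists were chosen with earlier results of these data known. Named genes were the members that passed, with up to 4 that did not, up to 4 that passed from each other list by size, and Cdkn1a, Foxm1, Mybl2 and E2f8; Ccne2, Rrm1, Tyms and the values used to show treatment or overlap were added. Promoters came from RefSeq on GRCm38.p6, not mm9. Alternatives were other filters, scalings, variance settings, a replicate block, and libraries left out.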

Additional observations from a re-analysis of the deposited data

Results flagged for a closer look

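Mcm4, a helicase subunit, responded to dexamethasone differently in ovariectomized and intact mice: the interaction term was 0.56 on the log2 scale (limma adjusted p = 0.0121), and it passed in all 21 alternative settings, between 0.48 and 0.69. In the intact state the 3 treated libraries lay below the 3 vehicle libraries, and in the ovariectomized state they overlapped.

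The same term passed for 8 other genes of the pathway lists. Of 21 tested inhibitor and pocket protein genes 2 were higher and 1 lower, and of 12 other G1 genes 0 and 1. Of 24 other replication genes 1 was higher and 0 lower, and of 28 other mitotic genes 0 and 3. Across all genes tested 15.3% were higher and 9.65% lower, so these lists together passed less often than that background. Rbl2 (0.56, adjusted p = 0.0015), Gins4 (0.4, 0.00252) and Ccng1 (0.29, 0.0133) had a more positive response in ovariectomized mice. Cenpa, the centromeric histone (-0.71, 0.00841), E2f2 (-0.72, 0.00881), Lin37 (-0.39, 0.0355), Cks2 (-0.34, 0.0185) and Pttg1, securin (-0.27, 0.0176), had a more negative one. Lin37 was lost in 10 alternative settings, and Cks2 and Ccng1 in 1 each.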

How the results depend on the processing

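Calls that passed in every one of 22 alternative settings were Ccnd1, E2f1, Mcm2, Mcm3, Mcm4, Mcm5, Mcm6 and Pcna (lower) and Rrm2 (higher) with dexamethasone in intact mice, Ccnd1, E2f1, Mcm6 and Rrm2 in ovariectomized mice, and Mcm2, Mcm4, Mcm6, Pcna and Brca1 (lower) in ovariectomized against intact vehicle mice; of the 19 calls under dexamethasone 0 did. The cause of each change below was not tested. With dexamethasone in intact mice the 2 higher calls became 1 with no filter, 1 with only the libraries compared, 5 with the replicate block and 1 without intact vehicle replicate 2 and intact dexamethasone replicate 3, where the lower calls were 18, the mitotic median -0.31 and the replication median -0.59. In ovariectomized mice the 5 lower calls became 3 with no filter, 3 with quantile normalization, 8 with only the libraries compared and 10 without both libraries. For ovariectomized against intact vehicle mice the 11 became 35 without both. Under dexamethasone the 19 became 6 with no filter, 11 at a mean of at least 6, 3 with quantile normalization and 1 with only the libraries compared. Calls among all genes tested went from 12.8% to 6.42%, 13.8%, 5.92% and 4.64% in the same order. For the difference in response the higher count was 3, the mitotic median 0.11 and the replication median 0.44 without both.

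Leaving out 1 library at a time, dexamethasone in intact mice gave 1 to 10 higher and 8 to 11 lower, a mitotic median of -0.07 to 0.57 and a replication median of -0.55 to -0.3; in ovariectomized mice it gave 1 to 2 higher and 3 to 6 lower. Ovariectomy with vehicle gave 5 to 18 lower, a replication median of -0.62 to -0.37 and a mitotic one of -0.7 to -0.34; with dexamethasone it gave 0 to 28 lower and a mitotic median of -1.22 to -0.63. The difference gave 1 to 2 higher, 0 to 1 lower, a replication median of 0.11 to 0.4 and a mitotic one of -0.75 to -0.14. Values that turned sign were not called. With dexamethasone in intact mice E2f8 (-0.15 to 0.06 with 1 library left out) was 0.06 without intact vehicle replicate 1 and 0.03 without intact dexamethasone replicate 1, and Foxm1 (-0.02 to 0.47) was -0.01 without intact vehicle replicate 2, -0.02 without intact dexamethasone replicate 3 and -0.27 without both. For ovariectomized against intact vehicle, Mybl2 (-0.09 to 0.12) was -0.02 with quantile normalization, 0 without intact vehicle replicate 1 and -0.09 without ovariectomized vehicle replicate 2, and E2f8 (-0.17 to 0.26) was 0.07 without intact vehicle replicate 1 and 0.26 without ovariectomized vehicle replicate 3. For the difference Foxm1 was 0.14 without both. Over all genes tested, correlations of same-numbered deviations ran from -0.231 to 0.396, and 4 of 12 were over 0.1. Those of differently numbered libraries ran wider, from -0.47 to 0.425. Those correlations do not speak for the mitotic genes alone. Replicate 2 was the lowest of its group for 28 of 28 mitotic genes in intact vehicle and 27 in intact dexamethasone. It was the lowest for 23 in ovariectomized vehicle and 21 in ovariectomized dexamethasone. Whether replicate numbers mark a shared batch or order was not tested. With the replicate block the mitotic count lower under dexamethasone was 23 instead of 16.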

Other observations

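Ccnf encodes cyclin F, the F-box protein that marks the RRM2 protein for degradation. Its log2 level was 8.21, 6.92 and 7.66 in intact vehicle, 8.62, 8.9 and 8.56 in intact dexamethasone, 7.46, 7.41 and 7.04 in ovariectomized vehicle, and 8.35, 8.78 and 8.61 in ovariectomized dexamethasone. It rose with dexamethasone in both states, by 1.1 ± 0.26 (limma adjusted p = 0.00406) and 1.27 ± 0.26 (adjusted p = 0.00224), as Rrm2 did, and every treated library was above every vehicle library of its state. Spc25, a subunit of the Ndc80 kinetochore complex, fell in both, by -0.78 ± 0.19 (adjusted p = 0.0056) and -0.87 ± 0.19 (adjusted p = 0.00379).

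Skp2, the F-box protein that marks the p27 inhibitor for degradation, stood at 6.19, 5.96 and 6.43 in intact vehicle and 5.72, 5.77 and 5.78 in ovariectomized vehicle (-0.44 ± 0.11, adjusted p = 0.0147), and at 6.32, 6.3 and 6.4 in ovariectomized dexamethasone (0.59 ± 0.11 over ovariectomized vehicle, adjusted p = 0.00182). Gins4, of the helicase-activating GINS complex, stood at 8.92, 8.95 and 8.87 in ovariectomized vehicle and at 9.47 in all 3 ovariectomized dexamethasone libraries (0.56 ± 0.049, adjusted p = 1.32e-05), the direction opposite to most Mcm genes.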
